A study of Bos taurus with 36 samples.

Results

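Platelet and megakaryocyte genes were followed in RNA-seq counts from bovine fetal heart, gonads and liver and from maternal blood. The 10 genes were a given list of symbols, chosen with earlier results of these data known. They were matched to the Entrez identifiers of the count table, and all 10 had a row among the 35092 genes in it. The genes were PF4 (Entrez 507790), PPBP (613723), ITGA2B (515011), ITGB3 (282642), GP9 (617668), GP1BA (504977), TREML1 (784711), SELP (281486), TUBB1 (541271) and SLC6A4 (282365).

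Megakaryocytes are large cells that shed platelets into the blood, and platelets carry megakaryocyte mRNA with them since they have no nucleus. In the adult, megakaryocytes sit mainly in the bone marrow, whereas before the marrow is formed the fetal liver is a main site of blood formation and holds them beside red cell precursors. Platelets stick to damaged vessels through surface receptors, release the content of their granules and aggregate, and they take up serotonin from plasma and store it.

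The study asked how gene expression in fetal organs and in the mother's blood goes with fetal weight at the end of organ formation. Samples were taken on Day 42 of gestation from 10 male fetuses, 1 per heifer, together with blood of each heifer. In the ET_D7 group an embryo aged 7 days was placed in the uterus on cycle Day 7 (synchronous transfer), and in the ET_D9 group such an embryo was placed on cycle Day 9, so that the uterus was ahead of the embryo. Every heifer received a transferred embryo, and no group was left without one. The 5 ET_D7 fetuses weighed 1.253 to 1.37 g and the 5 ET_D9 fetuses 1.396 to 1.69 g, so each ET_D9 fetus was heavier than each ET_D7 fetus, and weight and transfer group cannot be told apart beyond the spread within a group. Fetuses are numbered here by weight, from 1 (lightest) to 10 (heaviest). There were 9 heart libraries (fetus 7 missing), 9 gonad libraries (fetus 2 missing), 8 liver libraries (fetuses 6 and 7 missing) and 10 maternal blood libraries.

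Totals per library were about 20930000 to 35857000 counts for hearts, 22762000 to 39649000 for gonads, 18231000 to 34455000 for livers and 26602000 to 40812000 for blood. Levels are CPM, the share of a gene in the TMM-scaled library total expressed in parts per 1000000, and their SD is over libraries. The organs were scaled together and blood on its own. Blood libraries were made with another kit, so a level in blood and a level in an organ are set side by side without a test, and tissue, stage of life and kit cannot be told apart in them. Labels were checked with marker lists. Summed over 6 genes, hepatocyte markers reached 30100 to 56300 CPM in liver libraries and cardiomyocyte markers 33700 to 49700 CPM in heart libraries. In the libraries labelled gonads, 5 Sertoli cell markers summed to only 3.31 to 14.3 CPM (13.2 to 19.6 CPM in the heart). There, 8 nephron markers summed to 286 to 382 CPM (17.3 to 61.4 CPM in the heart). These markers did not bear out the label gonads, which is kept throughout only as the name of these libraries. Cardiomyocyte markers were also seen outside the heart, at 1970, 654, 371, 102 and 47.0 CPM in the liver libraries of fetuses 3, 4, 5, 8 and 9 (1.90 to 5.63 CPM in those of fetuses 1, 2 and 10), and at 3360 and 1110 CPM in the blood libraries of fetuses 2 and 5. In the liver, 333 genes held almost no counts in some fetuses and many in all others, and 0 of the 10 platelet genes was among them.

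All 10 platelet genes were higher in the liver than in the heart and the gonads. The background is that 30.7% of all 25095 genes tested were called higher in the liver than in the heart, and 33.6% higher than in the gonads (adjusted p under 0.05, edgeR's quasi-likelihood test). The median log2 fold change of the 10 genes was 3.69 over the heart and 5.90 over the gonads, beside 0 for all genes in both comparisons. In 9 of the 10 genes each liver library was above each heart library and each gonad library, and SLC6A4 was the exception in both. Of all 25095 genes, 9.72% had each liver library above all heart and gonad libraries. With each fetus left out in turn, 10 of 10 were called in both comparisons each time. In bulk tissue, fewer cells of a type and less RNA per cell cannot be told apart.

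**Figure D1:**
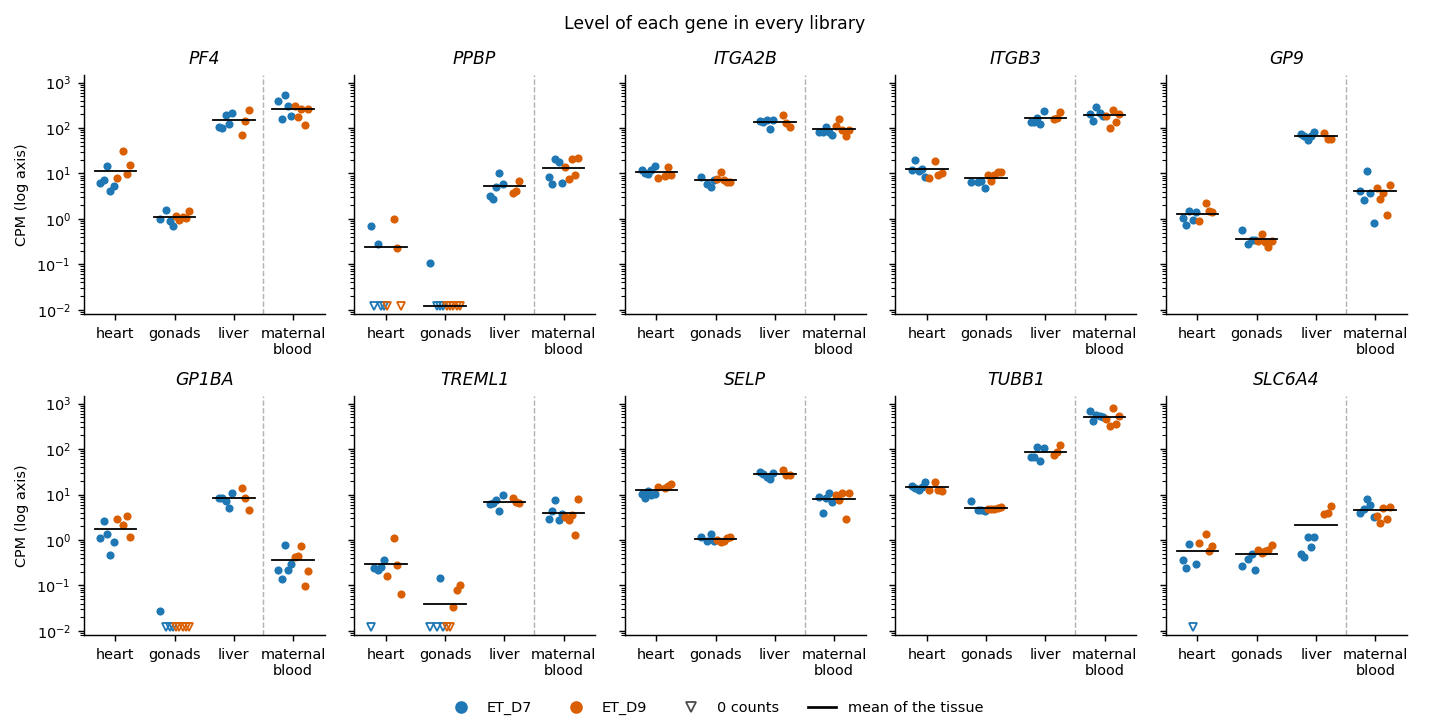
Level of each of the 10 genes in every library, in CPM on a log axis, with 1 panel per gene, 1 point per library coloured by transfer group, open triangles for libraries with 0 counts and a black line at the mean of the tissue. Liver points lie above all heart and gonad points in 9 panels, and in the SLC6A4 panel they overlap them. The dashed line separates the organs from maternal blood, which was scaled separately.

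The granule chemokines PF4 and PPBP are stored in alpha granules and released when platelets are activated. PF4 stood at 69.1, 131 and 249 CPM (lowest, median and highest of 8 libraries) in the liver, at 4.18, 7.80 and 30.5 CPM in the heart (n = 9), at 0.714, 1.05 and 1.56 CPM in the gonads (n = 9) and at 114, 261 and 521 CPM in maternal blood (n = 10). Its organ ranges did not overlap, in the order liver, heart, gonads, while liver and blood overlapped. The log2 fold change of PF4 was 3.72 in liver over heart (SE 0.33, adjusted p = 1.02e-10, edgeR) and 3.36 in heart over gonads (SE 0.33, adjusted p = 1.82e-09, edgeR).

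PPBP was detected in every liver and blood library, and in 4 of 9 heart libraries and 1 of 9 gonad libraries. Its liver levels were 2.745, 4.605 and 10.2 CPM (lowest, median and highest), and its blood levels 5.89, 11.4 and 22.1 CPM. Counts of 12, 10, 28 and 4 in the hearts of fetuses 1, 3, 8 and 9 were all that the heart held, and the other 5 heart libraries had 0. In gonads the only counts were 4 in fetus 1. A count of 0 in a gonad library allows up to 0.0466 to 0.081 CPM (3 counts, counting error only). Pooled over libraries, PPBP was 589 times as high in liver as in gonads (95% interval from counting error 229 to 2170), and its log2 fold change over the heart was 4.38 (SE 0.87, adjusted p = 9.77e-05, edgeR).

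ITGA2B and ITGB3 encode the pair of integrin chains that form the platelet fibrinogen receptor. ITGB3 also joins another alpha chain on vascular and other cells. ITGA2B was at 94.3, 137 and 194 CPM in the liver (lowest, median and highest), 8.01, 10.3 and 14.3 CPM in the heart, 5.04, 7.11 and 10.9 CPM in the gonads and 67.7, 85.8 and 157.5 CPM in blood. ITGB3 was at 125, 159 and 234 CPM in the liver, 7.76, 11.2 and 19.8 CPM in the heart, 4.85, 6.95 and 10.9 CPM in the gonads and 101.5, 192 and 291 CPM in blood. For both chains the liver stood clear of the other organs, heart and gonads overlapped, and so did liver and blood.

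Liver over heart, the log2 fold changes of the integrin chains were close to each other, 3.65 for ITGA2B (SE 0.16) and 3.77 for ITGB3 (SE 0.21), with adjusted p = 2.21e-17 and 2.89e-15 (edgeR). Heart over gonads they were 0.59 (SE 0.15, adjusted p = 0.00131) and 0.62 (SE 0.19, adjusted p = 0.00686), the smallest differences between these organs among the members that passed the test.

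GP9 and GP1BA are subunits of the receptor by which platelets bind von Willebrand factor, and TREML1 is a granule membrane receptor that comes to the platelet surface on activation. GP9 stood at 55.45, 67.2 and 80.1 CPM in the liver, with the narrowest relative spread of the 10 genes there after SELP (SD 9.68, mean 67.2). It was at 0.721, 1.42 and 2.20 CPM in the heart, 0.238, 0.330 and 0.567 CPM in the gonads and 0.824, 3.66 and 11.4 CPM in blood. Liver over heart its log2 fold change was 5.67 (SE 0.20, adjusted p = 2.09e-19, edgeR), the largest of the 10 genes, and 7.55 over the gonads (SE 0.22).

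GP1BA was at 4.51, 8.47 and 14.1 CPM in the liver, 0.464, 1.34 and 3.42 CPM in the heart and 0.0981, 0.261 and 0.779 CPM in blood. In the gonads it had 1 count in all 9 libraries together, against 364 counts in the heart and 1438 in the liver. The pooled level was 819 times as high in heart as in gonads (95% counting interval 146 to 32400) and 4230 times as high in liver (758 to 167000), with the limits set by that single count. Between liver and heart its log2 fold change was 2.23 (SE 0.38, adjusted p = 1.11e-05, edgeR).

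TREML1 was at 4.30, 6.61 and 9.94 CPM in the liver and 1.275, 3.40 and 7.93 CPM in blood, while no heart library exceeded 1.116 CPM and no gonad library 0.144 CPM. It had 0 counts in 1 heart library and in 5 of the 9 gonad libraries. Its log2 fold change was 4.51 over the heart (SE 0.68, adjusted p = 1.72e-06, edgeR) and 7.29 over the gonads (SE 0.77), the latter against 20 counts in all gonad libraries.

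SELP encodes P-selectin, which lies in platelet granules and in storage bodies of endothelial cells and catches white cells when it reaches the surface. It stood at 22.0, 27.8 and 34.5 CPM in the liver, 8.23, 12.1 and 17.2 CPM in the heart, 0.889, 0.991 and 1.37 CPM in the gonads and 2.94, 8.52 and 11.1 CPM in blood. None of the 3 organ ranges overlapped, and the liver range lay above the blood range. Its log2 fold change of liver over heart, 1.16 (SE 0.15, adjusted p = 7.46e-08, edgeR), was the smallest of the 10 genes, whereas heart over gonads it was 3.56 (SE 0.16, adjusted p = 4.99e-17, edgeR).

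TUBB1, the beta tubulin that builds the microtubule ring of platelets, was at 55.45, 81.2 and 123 CPM in the liver, 11.7, 13.9 and 19.0 CPM in the heart, 4.43, 4.79 and 7.21 CPM in the gonads and 315.5, 525 and 801 CPM in blood. All 4 ranges were apart, with blood highest. The log2 fold change was 2.56 in liver over heart (SE 0.15, adjusted p = 1.71e-14, edgeR) and 1.52 in heart over gonads (SE 0.15, adjusted p = 9.22e-10, edgeR).

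SLC6A4, the serotonin transporter by which platelets load serotonin, had 9 to 87 counts per liver library. It was at 0.419, 1.175 and 5.56 CPM in the liver, 0, 0.561 and 1.33 CPM in the heart, 0.217, 0.525 and 0.762 CPM in the gonads and 2.37, 4.42 and 7.81 CPM in blood. Its log2 fold change was 1.86 in liver over heart (SE 0.58, adjusted p = 0.0073, edgeR) and 2.09 in liver over gonads (SE 0.58, adjusted p = 0.00252, edgeR). Heart and gonads gave 0.23 (SE 0.55, adjusted p = 0.771, edgeR).

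Between heart and gonads, 9 of the 10 genes were higher in the heart, beside 23.5% of all genes tested, with a median log2 fold change of 2.33 (all genes -0.08). In 5 of the 10 every heart library was above every gonad library, beside 11.6% of all genes. Markers of some other cells moved the same way. Of 12 erythroid markers 11 were higher in the heart than in the gonads (summed level 220 to 384 CPM against 61.3 to 139 CPM), and of 10 endothelial markers 9 were (576 to 816 CPM against 265 to 306 CPM). Of 8 macrophage markers 5 were higher in the heart and 1 lower, and of 8 nephron markers 1 was higher and 6 lower. In the liver the erythroid list summed to 5880 to 9600 CPM and all 12 genes were higher than in the heart, 8 macrophage markers summed to 165 to 282 CPM (20.9 to 32.6 CPM in the heart) with all 8 higher, and the endothelial list summed to 168 to 224 CPM with all 10 lower. Their part in the differences of the platelet genes was not tested.

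**Figure D2:**
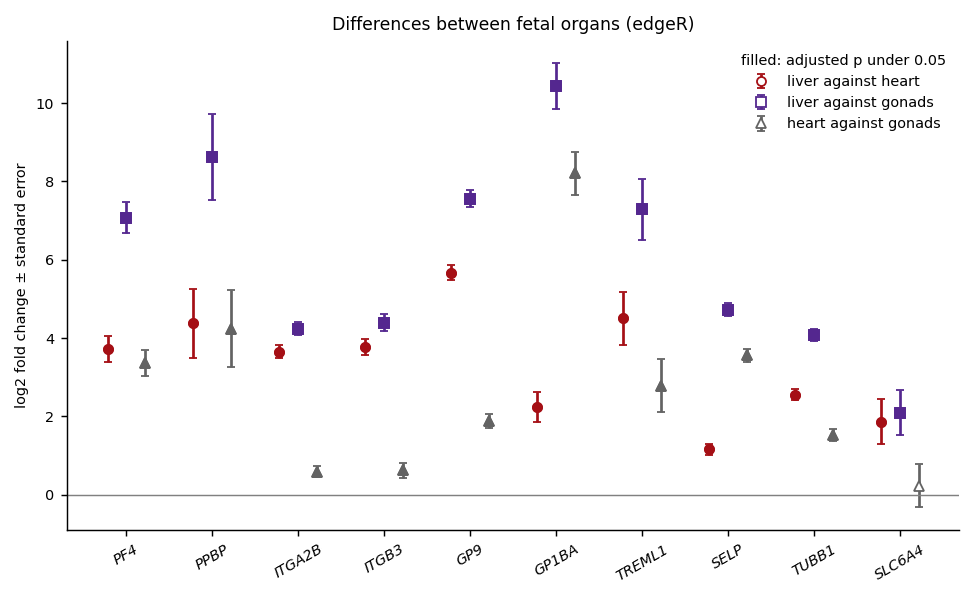
Log2 fold changes of the 10 genes between fetal organs, with standard errors, from edgeR over 26 libraries, where filled symbols mark an adjusted p under 0.05. Liver over heart ranges from 1.16 for SELP to 5.67 for GP9, and only SLC6A4 in heart over gonads is open. The values over gonads for GP1BA and PPBP rest on 1 and 4 gonad counts and are no bounds.

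Set beside the liver, maternal blood carried the genes in other proportions. The mean level in blood was 6.05 times that in the liver for TUBB1, 2.56 times for PPBP and 1.79 times for PF4, but 0.0606 times for GP9, 0.0426 times for GP1BA and 0.291 times for SELP. Ranges of blood and liver were apart for TUBB1 (blood above) and for GP9, GP1BA and SELP (liver above), and overlapped for the other 6. The share of all genes apart between blood and liver was not computed, so no result about these genes is drawn from that count. The partners of GP9 and GP1BA in the same receptor, named after their values were seen, stood at 3.75 ± 2.29 CPM in blood and 34.7 ± 13.5 CPM in liver for GP1BB, and at 0.386 ± 0.337 CPM and 1.85 ± 1.07 CPM for GP5 (SD, n = 10 and 8). Neutrophil markers, 6 genes summed, took 1090 to 2800 CPM in blood and 85.1 to 162 CPM in liver, and their part in these proportions was not tested.

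A further 40 genes of platelets and megakaryocytes were listed, and 39 had counts in the organs, P2RY12 being at 0 in all libraries. Over both other organs, 26 were higher in the liver and 8 lower, beside 23.1% of all genes higher and 19.6% lower. Against the heart alone 27 were higher and 10 lower, with a median log2 fold change of 2.07, and against the gonads 30 were higher and 8 lower, with a median of 3.77. Of all genes, 27.9% were lower in the liver than in the heart and 30.8% lower than in the gonads. By role, 8 of 9 signalling and cytoskeletal genes, 6 of 8 transcription factors, 7 of 14 surface receptors, 4 of 8 granule genes and THPO, the hormone that drives megakaryocyte growth, exceeded both other organs in the liver.

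The largest difference was that of CLEC1B, a platelet receptor for podoplanin, with 62.1 ± 8.72 CPM in livers (SD, n = 8) against means of 0.0652 CPM in the heart, 0.0859 CPM in the gonads and 0.134 CPM in blood, a log2 fold change of 9.53 over the heart (adjusted p = 2.25e-13, edgeR). PLEK, a protein kinase C substrate of platelets and white cells, followed with 6.44 over the heart and 6.53 over the gonads, and GFI1B, a transcription factor of red cell and megakaryocyte precursors, with 6.21 and 8.21. Lowest were SPARC, a matrix protein also found in platelet granules (-3.56 over the heart and -2.08 over the gonads), MEIS1, a homeobox factor (-1.95 and -4.43), and MYL9, a myosin light chain of smooth muscle and platelets (-4.76 over the heart, 0.45 over the gonads). The other 6 genes lower in the liver than in both organs, named after their values were seen, were TBXA2R, CD9, PEAR1, ESAM, ANGPT1 and FLI1.

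Within tissues, the genes were then compared along fetal weight with a linear term, which gives the log2 change per 0.1 g. In the liver 1 of the 10 genes was called, SLC6A4, beside 2.23% of 16605 genes tested. In liver libraries of ET_D7 fetuses 1 to 5, SLC6A4 stood at 0.480, 0.419, 1.18, 0.706 and 1.17 CPM (9, 9, 20, 10 and 36 counts), and in those of ET_D9 fetuses 8, 9 and 10 at 3.67, 3.86 and 5.56 CPM (87, 77 and 85 counts). Every ET_D9 liver was above every ET_D7 liver, as in 8.48% of all genes, and in 14.2% the groups did not overlap in either direction. The slope was 0.77 per 0.1 g (SE 0.12, adjusted p = 0.0195, edgeR), and it was among the results known when the genes were chosen.

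The same libraries compared by transfer group gave a log2 fold change of 2.32 for SLC6A4 in ET_D9 over ET_D7 (SE 0.48, adjusted p = 0.0308, edgeR), where 4.14% of genes were called. The call along weight was lost without fetus 8, 9 or 10 (adjusted p = 0.0519, 0.122 and 0.152), with slopes of 0.76, 0.82 and 0.79, where 103, 25 and 23 of all genes were called. It was also lost with transfer group as a covariate (slope 0.90, SE 0.44, adjusted p = 0.664). Without the 2 heaviest fetuses it was lost too, with a slope of 0.94 (adjusted p = 0.527), and in these last fits 0 of all genes were called. The call between transfer groups was lost without fetus 1, 2, 8, 9 or 10 (adjusted p = 0.0743, 0.0664, 0.0741, 0.136 and 0.128), where 227 to 359 of all genes were called.

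SLC6A4 overlaps a long non-coding RNA gene, LOC101904701, in the gene table, and how the counting treated strand is not given in the sources used here, so reads of the pair cannot be told apart with certainty. In the liver LOC101904701 was at 3.10, 6.15 and 8.30 CPM (lowest, median and highest), and its slope was 0.04 per 0.1 g (SE 0.09, adjusted p = 0.86, edgeR). The read count of SLC6A4 in a library, not scaled for length, was 0.0577 to 0.669 times that of LOC101904701 in liver libraries, and 0.829 to 1.38 times in blood libraries, where the pair ran close together.

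The other 9 platelet genes had liver slopes from -0.07 (GP9) to 0.08 (TUBB1) per 0.1 g, and none of them was called. The median slope of all 10 was 0.00, beside -0.01 for all genes. PF4 in the livers of fetuses 1 to 5 was at 105.5, 101, 196, 123 and 212 CPM and in those of fetuses 8, 9 and 10 at 69.1, 139 and 249 CPM, so the lightest liver of ET_D9 held the lowest level and the heaviest the highest. With transfer group as a covariate the slopes of PF4 (1.20, SE 0.23), PPBP (1.06, SE 0.38), TUBB1 (0.58, SE 0.22) and ITGB3 (0.51, SE 0.18) were larger than without it, with an adjusted p of 0.664 for each (edgeR). These 4 of the 10 are named since their unadjusted p was under 0.05, beside 7.47% of all genes. In the same fit the slopes of GP1BA (-0.43), ITGA2B (-0.24), SELP (-0.13) and GP9 (-0.08) were negative.

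**Figure D3:**
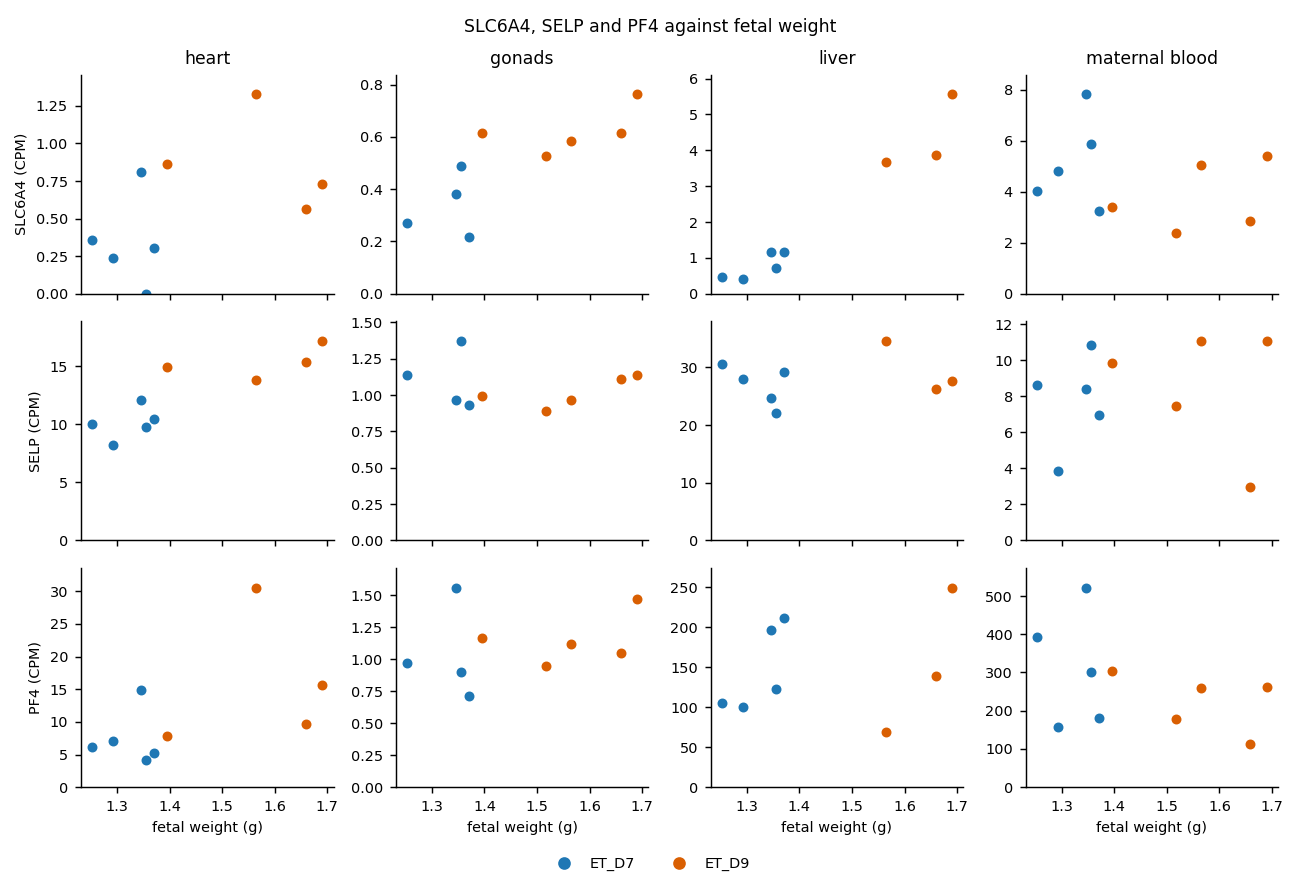
SLC6A4, SELP and PF4 in CPM (vertical axes, each from 0) against fetal weight in g, with 1 column of panels per tissue and 1 point per library coloured by transfer group. SLC6A4 in the liver lies between 0.419 and 1.18 CPM in ET_D7 and between 3.67 and 5.56 CPM in ET_D9, and SELP in the heart is above 13.8 CPM in ET_D9 and at most 12.1 CPM in ET_D7.

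In the heart 8 of the 10 genes passed the count minimum of 10 in at least 4 libraries (not PPBP or TREML1), and 1 of the 8 was called along weight, SELP, beside 6.77% of 16250 genes tested. SELP stood at 10.0, 8.23, 12.1, 9.80 and 10.5 CPM in the hearts of fetuses 1 to 5 and at 14.95, 13.8, 15.4 and 17.2 CPM in those of fetuses 6, 8, 9 and 10. The transfer groups did not overlap, as in 9.74% of all genes in either direction. Its slope was 0.18 per 0.1 g (SE 0.05, adjusted p = 0.0496, edgeR), just inside the threshold, and the call was lost without fetus 1, 2, 4, 5, 8, 9 or 10, with an adjusted p of up to 0.358. The slope in these fits was 0.16 to 0.19. Without fetus 1, 2, 4, 5, 8 or 10, and also without the 2 heaviest fetuses, 0 of all genes were called, and without fetus 9 1661 of 16116 were. Without fetus 3, where SELP stayed called, 3947 of 15907 genes (24.8%) were. With transfer group as a covariate the slope was 0.07 (SE 0.08, adjusted p = 0.769), again with 0 of all genes called. The call of SELP was also lost with mitochondrial genes left out, where 5.85% of genes were called. It was lost too with genes of at least 1 count (3.1% called).

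Of the 10 endothelial markers, 3 were called higher with weight in the heart and none lower, beside 5.22% and 1.54% of all genes. They were PECAM1 (0.29 per 0.1 g), CDH5 (0.21) and EMCN (0.18), and the median slope of the 10 markers was 0.06. These 3 calls too were lost without fetus 1, 2, 4, 5, 8 or 10, with transfer group as a covariate and without the 2 heaviest fetuses, where 0 of all genes were called, and that of CDH5 without fetus 6 (adjusted p = 0.0535, edgeR). The share of counts from mitochondrial genes was 57.3% in the heart of fetus 2 and 17.1% in that of fetus 10. Apart from the fit without mitochondrial genes, the part of these markers and of this share in the slope of SELP was not tested. PF4 in the heart had a slope of 0.36 (SE 0.16, adjusted p = 0.156, edgeR), and without fetus 8, whose heart held 30.5 CPM, it was 0.21 (SE 0.12, adjusted p = 0.302). The remaining 6 heart slopes lay between -0.05 (ITGB3) and 0.32 (SLC6A4), and the median over the 8 genes was 0.17, beside -0.01 for all genes.

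Between transfer groups 0 of the 8 genes was called in the heart, beside 0.0492% of genes (edgeR, with 2 of the 8 at an unadjusted p under 0.05 and 1 called by DESeq2, beside 24.6% and 13.3% of all genes). SELP had a log2 fold change of 0.60 in ET_D9 over ET_D7 (SE 0.13, adjusted p = 0.0637) and PF4 of 1.07 (SE 0.46, adjusted p = 0.189). Without fetus 3 both were called, SELP with an adjusted p of 0.0127 and PF4 with 0.0356, in a fit that called 2846 of 15907 genes (17.9%).

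In the gonads 7 of the 10 genes passed the count minimum (not PPBP, GP1BA or TREML1). Along weight 0 of the 7 was called, beside 0% of 17809 genes tested (2 of the 7 at an unadjusted p under 0.05, beside 5.62% of all genes, and 0 called by DESeq2), and between transfer groups 0 of the 7, beside 0.354% (2 at an unadjusted p under 0.05 and 1 called by DESeq2, beside 18.5% and 5.28% of all genes). ITGB3 was at 6.32, 6.54, 6.71 and 4.85 CPM in the gonads of ET_D7 fetuses 1, 3, 4 and 5 and at 9.42, 6.95, 9.13, 10.6 and 10.9 CPM in those of ET_D9 fetuses 6 to 10, without overlap, as in 7.64% of all genes in either direction. Its log2 fold change was 0.65 (SE 0.15, adjusted p = 0.0796, edgeR) and its slope 0.20 per 0.1 g (SE 0.06, adjusted p = 0.849).

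SLC6A4 in the gonads was at 0.270, 0.380, 0.487 and 0.217 CPM in ET_D7 and at 0.616, 0.525, 0.585, 0.615 and 0.762 CPM in ET_D9, from 10 to 45 counts per library. These groups did not overlap either. The log2 fold change was 0.89 (SE 0.31, adjusted p = 0.178, edgeR) and the slope 0.28 per 0.1 g (SE 0.12, adjusted p = 0.849). In the heart its slope of 0.32 (SE 0.26, adjusted p = 0.449) came from 0 to 38 counts per library, with the groups overlapping.

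In maternal blood all 10 genes passed the count minimum, and 0 of them was called along fetal weight or between transfer groups, beside 0% of 16284 genes in each comparison (0 of the 10 at an unadjusted p under 0.05, beside 9.69% of genes along weight and 7.60% between groups, and 0 called by DESeq2). Slopes ran from -0.19 (PF4, SE 0.11) to 0.17 (PPBP, SE 0.14) per 0.1 g. The groups overlapped for each of the 10 genes. SLC6A4 in blood had a slope of -0.07 (SE 0.11, adjusted p = 0.862).

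A natural spline of weight with 3 degrees of freedom, which allows a curved course, called 0 of the platelet genes in each tissue, beside 0% of genes in the heart, 0% in gonads, 1.81% for liver and 0.129% for blood. In the liver 2 of the 10 had an unadjusted p under 0.05, beside 17.9% of genes, SLC6A4 (adjusted p = 0.114, edgeR) and PF4 (adjusted p = 0.135), and in the other tissues 0 had. Differences of the linear slopes between organs were tested over the 26 libraries, a test added after the values were seen. For the 10 genes 0 was called in liver minus heart (8.15% of 19635 genes), 0 in liver minus gonads (5.14%) and 0 in heart minus gonads (0.0357%). At an unadjusted p under 0.05 were 2, 2 and 5, beside 23.1%, 16.8% and 7.42% of genes (edgeR). The 2 in liver minus gonads were GP1BA and PPBP, which were also among the 5 in heart minus gonads. Their gonad slopes rest on 1 and 4 counts in all, each in fetus 1, under the count minimum used within the gonads. No result about the genes is drawn from these numbers. For SLC6A4 the slope was larger in the liver by 0.47 than in the heart (adjusted p = 0.362) and by 0.53 than in the gonads (adjusted p = 0.385), so a difference between organs was not shown.

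**Figure D4:**
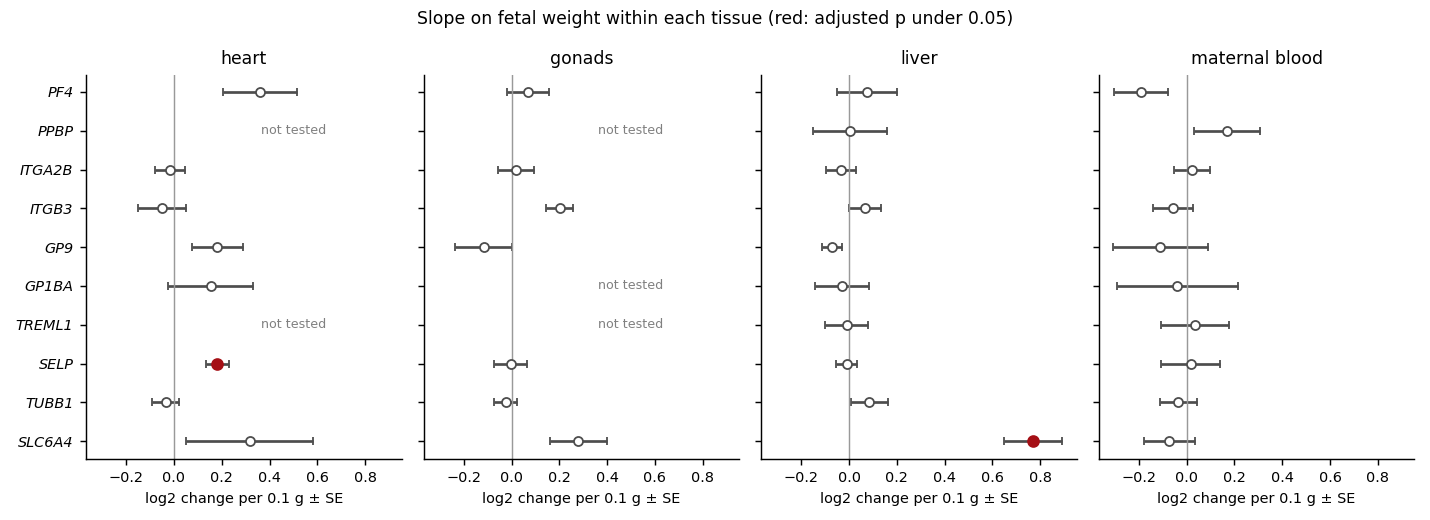
Slope of each gene on fetal weight within each tissue, as log2 change per 0.1 g with its standard error (edgeR), where red marks an adjusted p under 0.05 and genes under the count minimum are given as not tested. SLC6A4 in the liver (0.77) and SELP in the heart (0.18) are red, and the blood slopes lie between -0.19 and 0.17.

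Likeness across the libraries of a tissue was taken as a description. Pearson's r of log2(CPM + 1) over the 10 blood libraries was positive in 42 of 45 pairs, with a median of 0.53. The 36 pairs without ITGA2B, set apart after the values were seen, were all positive, from 0.33 to 0.86, with the highest for ITGB3 with TUBB1 (0.86) and PF4 with GP9 (0.85). In the 8 liver libraries 31 of 45 pairs were positive, the median was 0.20 and the range -0.66 to 0.94. All points of a pair share their libraries and depth. The share of positive pairs among all genes was not computed, so no result about these genes is drawn from the number of positive pairs.

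ITGA2B stood apart from the other members in blood, where its r with the other 9 ran from -0.32 (TUBB1) to 0.53 (GP1BA). Over the 16274 other genes in blood its median r was -0.01, and over 16595 in the liver 0.10. The 5 genes most like it there were SPI1, CBL, MBOAT7, ARID3A and LIMK2, with r from 0.97 to 0.95 over 10 libraries, and in the liver FBXW5, RRBP1, PHRF1 and SIRT2 were among the most like it, with r of 0.99 over 8 libraries. In the liver its r was 0.94 with GP1BA, 0.80 with TREML1 and 0.77 with SELP, but -0.43 with PF4 and -0.65 with PPBP. In blood, the library of fetus 7 held the highest ITGA2B (157.5 CPM) and the lowest ITGB3 (101.5 CPM), TUBB1 (315.5 CPM) and SLC6A4 (2.37 CPM). The part of this single library in the blood values of r, and in setting ITGA2B apart, was not tested.

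**Figure D5:**
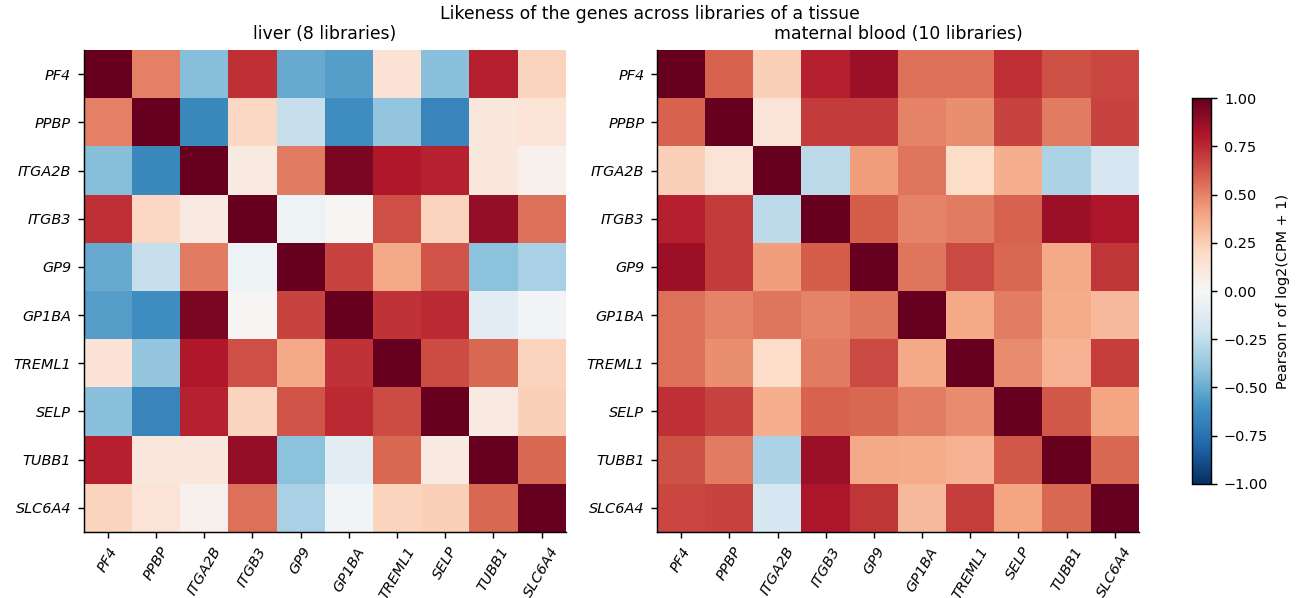
Pearson's r of log2(CPM + 1) for each pair of the 10 genes over the 8 liver libraries (left) and the 10 maternal blood libraries (right), with red for positive and blue for negative values. In blood only pairs with ITGA2B are negative, and in the liver PF4 and PPBP are negative with ITGA2B (-0.43 and -0.65).

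Single libraries held several of the genes at their highest. The share of all genes that are highest or lowest in a given library was not computed. No result about the platelet genes is therefore drawn from how many of them were. In the heart 6 of the 10 genes peaked in fetus 8 (PF4, PPBP, GP9, TREML1, TUBB1 and SLC6A4), and the 10 genes summed to 99.0 CPM there against 54.8 to 67.35 CPM in the other hearts. For PPBP, TREML1 and SLC6A4 the peak was only 28, 32 and 38 counts. That library held 334 CPM of erythroid markers and 711 CPM of endothelial markers, both within the range of the other hearts, and 32.6 CPM of macrophage markers, the highest of the hearts. Hepatocyte markers stood at 54.1 CPM in it (27.7 to 47.5 CPM in the other hearts) and neutrophil markers at 4.57 CPM, the second highest (0.356 to 4.99 CPM over all hearts). The part of these markers in the levels of the platelet genes was not tested. In blood 5 of the 10 peaked in the heifer of fetus 3 (PF4, GP9, GP1BA, ITGB3 and SLC6A4) and 5 were lowest in that of fetus 9, with sums of 1528 and 698 CPM. The blood library of fetus 3 also held the most neutrophil markers, 2800 CPM (1090 to 2430 CPM in the others), and the most macrophage markers, 525 CPM, and their part in its levels was not tested.

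SLC6A4 was set beside 7 genes that make or handle serotonin, of which 2 were higher (DDC and SLC18A1) and 1 lower (MAOA) in the liver than in the heart, beside 30.7% and 27.9% of all genes. TPH1 and TPH2, which carry out the first step of synthesis, were at or under 1.81 CPM on average in each tissue. DDC, the next enzyme, was at 29.2 ± 5.57 CPM in livers (SD, n = 8), 0.615 CPM in the heart and 2.23 CPM in the gonads, with a log2 fold change of 5.52 over the heart (adjusted p = 9.19e-12, edgeR), while MAOA, which breaks serotonin down, was lower in the liver (log2 fold change -1.31, adjusted p = 0.000432). The vesicle transporter of platelets, SLC18A2, was at 11.2 CPM in the liver, 9.36 CPM in the heart, 8.76 CPM in the gonads and 16.9 CPM in blood, and neither liver comparison passed the test. SLC18A1, a related transporter, ranged from 0 to 185 CPM among livers, and the receptor HTR2A averaged under 1 CPM in each tissue. With weight, 0 of the 5 serotonin genes tested in the liver was called.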

How the data were processed

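RNA from fetal heart, gonads and liver and from maternal blood was sequenced as stranded 100-base read pairs, with a TruSeq mRNA kit for organs and a SMARTer kit for blood. The authors trimmed reads with Trimmomatic, mapped them with STAR 2.7.0b to the bovine genome (ARS-UCD1.3) and counted them per gene with featureCounts (Subread 2.0.3, per the labels). They deposited whole-number counts per Entrez gene, and no normalization of these counts is stated. Counting options for strand and shared reads are not given in the sources used here, so overlapping genes are uncertain.

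The counts were tested as deposited with edgeR 4.0.16 (quasi-likelihood test, TMM, Benjamini-Hochberg over all genes tested, threshold 0.05). Organs were compared in 1 fit of 26 libraries over genes with at least 1 count. Within a tissue, genes that reached 10 counts in 4 or more libraries were fitted on weight per 0.1 g, on a natural spline of weight with 3 degrees of freedom, and on transfer group. SE is the log2 fold change divided by the root of its F statistic. DESeq2 1.42.0, other scalings and filters, a fetus block, transfer group as a covariate and leaving out fetuses were alternatives. Scripts were tested on simulated data. Pooled ratios carry exact 95% intervals for counting error.

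The members and gene lists were chosen with earlier results of these data known, and the slope of SLC6A4 in the liver was among those results. All 10 members are named. Members with an unadjusted p under 0.05 along weight or between transfer groups are given with their statistics. Of the other platelet genes, the 3 largest and 3 smallest were named by the smaller of the log2 fold changes of liver over heart and over gonads. Libraries of different organs carried the same fetus number, so they came from the same animal, but deviations from the organ means were only weakly related within a fetus (mean r 0.0973 between heart and gonads, 0.0142 between heart and liver and 0.0239 between gonads and liver). No library was a copy of another. Within a tissue each library is 1 animal, so p-values of those fits measure the spread between animals. The organ comparisons as reported had no term for the fetus and treated libraries of the same fetus as independent. Gene names came from a RefSeq table of another build (ARS-UCD2.0), which gave a symbol for 31630 of 35092 genes. Positions in that table served only to find which gene overlaps SLC6A4 and which genes are mitochondrial, and none is printed. No gene lengths or sequences were used, so levels were not compared between genes per length. A gene among those most like ITGA2B in the liver is not reported here.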

Additional observations from a re-analysis of the deposited data

Results flagged for a closer look

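The levels of the 10 genes were examined in 40 groups of a gene and a tissue for a library far from the others. Dixon's test at 95% picked out 7. Chance alone flags about 1 of 20 groups of normally distributed values. These CPM were not shown to be normal, so no excess of outliers is read from the 7. In the heart of fetus 8, PF4 stood at 30.52 CPM, with a gap to the next heart of 0.566 of the whole range, and TREML1 at 1.116 CPM (0.675). In the gonads of fetus 1 the only counts of PPBP gave 0.1081 CPM and the only count of GP1BA 0.02701 CPM, both with a gap of 1.0 of the range since the other 8 libraries were at 0, and TUBB1 stood at 7.213 CPM (0.632). In maternal blood ITGA2B stood at 157.5 CPM in the heifer of fetus 7 (0.511) and GP9 at 11.37 CPM in that of fetus 3 (0.538).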

How the results depend on the processing

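In the organ comparisons the 10, 10 and 9 platelet genes called were 10, 10 and 9 under each alternative, except 7 of 10 in heart over gonads when a log2 fold change above 1 was also asked for (ITGA2B and ITGB3 fell under it). With a replicate block for the fetus the counts were 10 in liver over heart, 10 in liver over gonads and 9 in heart over gonads, and the block changed no call of the 10 genes in these comparisons. Size factors of DESeq2 moved the median of all genes to 0.13 on the log2 scale in both liver comparisons, DESeq2 itself to 0.27 and the block to -0.17 in liver over gonads, and no direction of a called platelet gene changed. Along weight in the heart, 1 gene was called in the fit as reported and 0 with genes of at least 1 count, without mitochondrial genes, with transfer group as a covariate or without the 2 heaviest fetuses, and leaving out 1 library gave 0 to 1. Between transfer groups in the heart, DESeq2 called 1 in place of 0, and leaving out 1 library gave 0 to 2. In the gonads between transfer groups DESeq2 called 1 (ITGB3) in place of 0. Along weight in the liver 1 gene was called, and 0 with transfer group as a covariate or without the 2 heaviest fetuses, and leaving out 1 library gave 0 to 1. Between transfer groups in the liver 1 was called, 0 with genes of at least 1 count, and 0 to 1 with 1 library left out. The cause of the lost and gained calls was not tested. Spline and blood counts stayed at 0. Counts of at most 45 per library limit what could be seen for PPBP, TREML1 and SLC6A4 in the heart and gonads, and 1 count in all for GP1BA in the gonads.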

Other observations

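Of the further platelet and megakaryocyte genes, few were called along fetal weight. In the heart 2 of 35 tested were, CD9, a tetraspanin of platelets and many other cells (0.59 per 0.1 g, SE 0.11, adjusted p = 0.0395, edgeR), and ESAM, an adhesion protein of endothelium and platelets (0.21, SE 0.05, adjusted p = 0.0419), beside 6.77% of all genes. Both calls were lost without fetus 1, 2, 4, 5, 8 or 10, with transfer group as a covariate and without the 2 heaviest fetuses, fits in which 0 of all genes were called, and that of ESAM also with genes of at least 1 count (adjusted p = 0.0505). In the gonads 0 of 35 was called, in the liver 0 of 39 and in maternal blood 0 of 36 (5, 6 and 6 of them at an unadjusted p under 0.05, beside 5.62%, 17.2% and 9.69% of all genes). Between transfer groups 1 gene was called in the liver, MPIG6B, an inhibitory receptor of megakaryocytes, which was lower in ET_D9 (log2 fold change -1.03, SE 0.16, adjusted p = 0.00716, edgeR), beside 4.14% of all genes. This call was lost without fetus 9 (log2 fold change -0.98, adjusted p = 0.0831).

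Among the serotonin genes, SLC18A2 was higher with weight in the heart (0.19 per 0.1 g, SE 0.05, adjusted p = 0.0485, edgeR). It was 1 called of 4 tested there, beside 6.77% of all genes. The call was lost without fetus 1, 2, 4, 5, 8 or 10, with transfer group as a covariate and without the 2 heaviest fetuses, where 0 of all genes were called, and also without fetus 6 (adjusted p = 0.0608) and with genes of at least 1 count (adjusted p = 0.0622). The slope of TPH1 was larger in the liver than in the heart by 0.95 (SE 0.20, adjusted p = 0.0034, edgeR), while within the liver alone its slope was 0.56 with an adjusted p of 0.183. It was 1 called of 7 tested in liver minus heart, beside 8.15% of all genes. These genes were named after their values were seen.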
